A study of Mus musculus with 1 sample.

Results

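The long noncoding RNAs Malat1, Neat1, Gas5, Snhg1, Kcnq1ot1 and H19, were described in single cells of mouse stomach epithelium. They were taken by gene symbol and make up 6 of the 32285 genes counted in the library. They were selected on their UMI counts in these same cells, as abundant long noncoding RNAs, so their levels are given as a description with no test. The name fitted 4 of the 6: Malat1, Gas5, Snhg1 and Neat1 ranked 1, 128, 186 and 309 among all genes by UMIs, Kcnq1ot1 ranked 2034 and H19 ranked 14457. A UMI (unique molecular identifier) count is the number of distinct captured RNA molecules.

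The cells came from gastric organoids, which are epithelial cultures grown as hollow spheres in a gel. The genotype was wild type with no treatment, and the organoids were taken 7 days after seeding and split into single cells with trypsin at a strength of 0.05% (37 °C, 30 min). One droplet library was made with a 10x Genomics kit that reads the 3′ ends of RNAs. Other organoid genotypes that the series names were not analysed here, and with 1 library no condition could be compared and no difference was tested.

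Long noncoding RNAs are transcripts that act or are processed as RNA and encode no known protein. Malat1 and Neat1 stay in the nucleus, Malat1 in the speckles that store splicing factors and Neat1 as the scaffold of the bodies called paraspeckles. Gas5 and Snhg1 are host genes: their introns hold box C/D small nucleolar RNAs (snoRNAs), which guide methylation of ribosomal RNA, and the spliced host RNA is exported. Kcnq1ot1 and H19 are imprinted. Kcnq1ot1 is transcribed from the paternal allele in antisense to Kcnq1 and silences genes near it, and H19 is made from the maternal allele, carries the microRNA Mir675 and is known from fetal tissue.

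Positions were read from GENCODE M21 (GRCm38). Malat1 is a lincRNA gene on the minus strand (chr19:5795690-5802672), and Neat1 lies 22035 bases away on the same strand (chr19:5824708-5845478). Snhg1 is on the plus strand of the same chromosome (chr19:8723475-8726443) and holds 8 annotated snoRNA genes. Gas5 (chr1:161034422-161038539, plus strand) holds 10 such entries, with Snord80 entered at both chr1:161037601-161037681 and chr1:161037604-161037680. Kcnq1ot1 (chr7:143203458-143296549, minus strand) lies wholly within Kcnq1, and H19 (chr7:142575529-142578143, minus strand) overlaps Mir675. No snoRNA or microRNA gene inside a member had a row of its own in the matrix. Kcnq1 on the opposite strand of Kcnq1ot1, and Zbtb37 on the opposite strand of the start of Gas5, did have rows. Use of strand in counting is not given in the sources used here, so UMIs of these overlapping pairs cannot be told apart with certainty.

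The ends of the transcripts are shown because a 3′ kit primes on stretches of A. The long isoform of Neat1 and Malat1 are known to end without an ordinary poly(A) tail, at an A-rich tract cut by RNase P. Malat1-201 held 1 run of at least 10 A, 12 bases long, and the stretch around it (bases 6646 to 6705 of 6983, chr19:5795968-5796027, minus strand) shared 11 bases with the very end of Neat1-201 (chr19:5824708-5824747, minus strand). Those 11 bases, AAAAAGCAAAA, are in capitals below and occurred on the transcript strand in 0.436% of all 141767 annotated transcripts.
Malat1-201: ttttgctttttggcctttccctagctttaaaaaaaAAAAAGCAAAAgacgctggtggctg
Neat1-201: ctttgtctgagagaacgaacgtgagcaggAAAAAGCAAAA

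The last 40 bases of the short Neat1 isoform and of the longest transcripts of the other 4 genes each held AATAAA or ATTAAA, the common polyadenylation signals, with every match in capitals. The end of Kcnq1ot1-201 held both. Either motif was in the last 40 bases of 32.6% of all annotated transcripts. It was also there in 3 of 4 annotated Malat1 transcripts, whose ends are not shown. The counts were 1 of 4 for Neat1, 17 of 25 for Gas5, 10 of 18 for Snhg1, 4 of 7 for H19 and 1 of 1 for Kcnq1ot1.
Neat1-202: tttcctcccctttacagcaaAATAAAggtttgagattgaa
Gas5-218: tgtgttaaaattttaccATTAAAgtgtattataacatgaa
Snhg1-215: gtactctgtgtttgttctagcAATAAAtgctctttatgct
H19-202: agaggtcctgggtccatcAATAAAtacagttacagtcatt
Kcnq1ot1-201: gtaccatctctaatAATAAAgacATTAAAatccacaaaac

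Runs of at least 10 A also lay inside Kcnq1ot1-201, which held 10 of them with a longest run of 41 A over its 93092 bases. The longest transcripts of Neat1, Gas5, Snhg1 and H19 held 0. Such a run was in 7.18% of all annotated transcripts. Where along each RNA the reads began was not analysed here.

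The starts of the host RNAs are shown because snoRNA host genes are known for starts rich in C and T, a feature they share with ribosomal protein messenger RNAs. The longest run of C or T within the first 20 bases is in capitals. It was 5 bases in Gas5-218, at the first base, and 9 bases in Snhg1-215, from the fifth base.
Gas5-218: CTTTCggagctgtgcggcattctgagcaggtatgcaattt
Snhg1-215: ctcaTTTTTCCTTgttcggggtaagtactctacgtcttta

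A run of at least 5 such bases in that window was present in 8 of 25 annotated Gas5 transcripts and 9 of 18 Snhg1 transcripts. Its share was 39.3% over 501 transcripts of ribosomal protein genes and 32.0% over all annotated transcripts. A stricter form, C at the first base and at least 4 more of C or T directly after it, was in 5 of 25 Gas5 and 0 of 18 Snhg1 transcripts, in 10.2% of those of ribosomal protein genes and in 2.02% of all.

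The library held 1991 barcodes with 20236916 gene UMIs, a median of 8190 per barcode (range 520 to 47183). The 1892 barcodes with 500 or more genes detected and no more than 20% mitochondrial UMIs are called cells here. They had a median of 8512.5 gene UMIs and 2220 genes, 4.03% of their UMIs were mitochondrial and 35.1% came from ribosomal protein genes. The 5 epithelial markers (Epcam, Krt8, Krt18, Krt19, Cdh1) had a UMI in 52.1% to 99.6% of cells. Of 13 fibroblast, endothelial, immune and red cell markers, 6 had 0 UMIs and none had a UMI in more than 0.687% of cells. Scrublet called 12 cells (0.634%) as doublets, and they were kept, since the cell filter alone defined the set.

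Together the 6 RNAs held 2.68% of the UMIs of the cells, nearly all of it Malat1. Levels are in CPM, a gene's UMIs per 1000000 gene UMIs, both summed over the same cells, with 95% exact Poisson intervals. Intervals here and below cover counting error only, and say nothing of the spread between cultures.

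Malat1 had 489516 UMIs, which is 24332 CPM (24264 to 24400), and was detected in 99.7% of cells. Per cell its level ran from 0 through a median of 14901 CPM to 554647 CPM, or 55.5% of that cell's UMIs. The upper quartile of cells lay 13.0-fold above the lower (40991 against 3145 CPM).

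Neat1, at 396 CPM (388 to 405), had a UMI in 67.1% of cells, with a median of 165 CPM and a highest value of 11905 CPM. The lower quartile of cells had none.

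Gas5 reached 1325 CPM (1309 to 1341) and was detected in 99.2% of cells, with per-cell values from 0 through 1241 to 4318 CPM. Snhg1 reached 699 CPM (688 to 711) in 93.1% of cells, with values from 0 through 596 to 4073 CPM. The host RNAs were more even than Malat1: the upper quartile was 1.87 times the lower for Gas5 and 2.94 times for Snhg1.

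Kcnq1ot1 had 1075 UMIs, or 53.4 CPM (50.3 to 56.7), in 33.2% of cells, and its median per cell was 0. H19 had 2 UMIs in 2 of 1892 cells, 0.0994 CPM (0.0120 to 0.359). H19 was thus near the floor of the library and was left out of all ratios. Neither RNA was abundant in these cells.

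**Figure D1:**
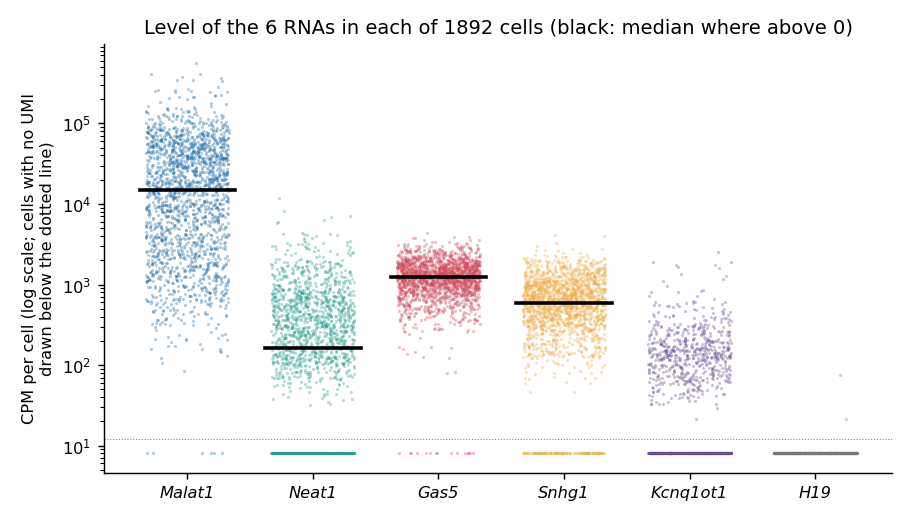
Level of the 6 RNAs in each of 1892 cells, in CPM per cell on a log scale, with cells without a UMI drawn below the dotted line and the median as a black bar where it is above 0. Malat1 (median 14901 CPM) spreads over more than 3 powers of 10, Gas5 (1241 CPM) forms the narrowest band, and H19 has 2 cells above the line.

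On a scale per length (CPM per kb of the longest annotated transcript) the order of the levels was Malat1 3484, Gas5 519, Snhg1 256, Neat1 19.1, Kcnq1ot1 0.574 and H19 0.0435. A 3′ kit counts about 1 end per molecule whatever the length, and on the scale without length the order was the same. All neighbours in that order were separated by more than their counting intervals.

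Detection depends on depth, so each cell was also thinned to 3000 UMIs, which left out 57 shallower cells of 1892. A UMI was then found in 98.3% of 1835 cells for Malat1, 96.1% for Gas5, 79.7% for Snhg1, 45.5% for Neat1 and 14.6% for Kcnq1ot1. H19 was found in 0 of 1835 cells, for which the limit from 3 cells is 0.163% and the exact upper limit 0.201% of cells with a UMI. Free RNA in droplets can add UMIs to cells that do not express a gene. No cell type here is known to lack these RNAs, so that background was not estimated.

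The spread between cells at equal depth was read in 2 ways. The variance of thinned counts divided by their mean, which is about 1 for pure counting noise and which, for a given relative spread, grows with the mean, was 146 for Malat1 and 3.68 for Neat1, ranks 3 and 46 of 6906 genes with at least 50 thinned UMIs. It was 1.76 for Snhg1, 1.45 for Gas5 and 1.25 for Kcnq1ot1, against a median of 1.03 over those genes. The highest 271 cells (14.8%) held 50% of the thinned Malat1 UMIs, while it took 526 cells (28.7%) to hold that share of Gas5 UMIs. It took 375 cells (20.4%) for Snhg1, 174 (9.48%) for Neat1 and 106 (5.78%) for Kcnq1ot1, so that by this measure, which falls with sparse counts, Kcnq1ot1 was the most concentrated of the 5.

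The upper tail of Malat1 was thin. It made up less than 0.1% of UMIs in 186 cells (9.83%), at least 5% in 380 cells (20.1%), which held 52.5% of its UMIs, and at least 20% in 25 cells (1.32%). Those 25 cells had a median of 2096 UMIs, a mitochondrial share of 18.5% and a ribosomal protein share of 16.3%, against 8512.5 UMIs, 4.18% and 36.0% over all cells. Here and in what follows, unless stated, the mitochondrial and ribosomal protein shares of a cell are computed without the UMIs of the 6 RNAs. No RNA then enters both sides of a comparison. The mitochondrial share of the cell filter, and the bins of all barcodes made with it, do include the 6 RNAs in the total.

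Cells were then ordered by depth (gene UMIs without the 6 RNAs) and put into 4 equal bins of 473 cells. A ratio of CPM between the top and bottom bin of at least 1.5, or at most 1/1.5, is called a difference, and the background is the share of all genes with at least 50 UMIs over both bins that pass it. Malat1 and Kcnq1ot1 were lower in deep cells, and the other 3 RNAs passed in neither direction.

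Malat1 was at 41632, 29692, 24016 and 18611 CPM from the shallowest to the deepest bin, a ratio of 0.447 (0.443 to 0.451). The cells overlapped widely: the median cell had 18486 CPM in the shallowest bin and 10305 CPM in the deepest. The highest shallow cell had 554647 CPM and the highest deep cell 141659 CPM.

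Kcnq1ot1 stepped down from 79.0 to 42.7 CPM, a ratio of 0.541 (0.451 to 0.651). These 2 of 5 RNAs were lower where 2.64% of 9086 genes were, and 0 were higher where 10.9% of genes were. Neat1 (0.885), Gas5 (1.03) and Snhg1 (1.02) lay near the median ratio of 1.06 over those genes. The direction for Neat1 was not stable: the ratio was 1.17 among cells with at least 1000 genes and at most 10% mitochondrial UMIs, and 0.606 over all barcodes, which passes the line. Mitochondrial share moved with depth, with a median of 4.77% in the shallowest bin and 3.56% in the deepest, and its part in these ratios was not tested.

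Mitochondrial share separated the RNAs into those that were higher with it and those that were level. The mitochondrial share of a droplet is commonly used as a measure of cell quality. The bins had median shares of 2.20%, 3.58%, 4.80% and 6.86%.

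Malat1 was at 12224, 19431, 28393 and 43570 CPM over these bins, a ratio of 3.56 (3.53 to 3.60). The median cell went from 3413 to 35523 CPM, so the middle of the bins differed as well as the extremes, although the bins overlapped. In the top bin the lower quartile of cells, 15448 CPM, was above the upper quartile of the bottom bin, 14241 CPM.

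Neat1 went from 203 through 304 and 493 to 683 CPM, a ratio of 3.36 (3.14 to 3.60), with the median cell at 58.6 and then 396 CPM. Kcnq1ot1 went from 28.6 through 43.5 and 60.0 to 94.9 CPM, a ratio of 3.32 (2.76 to 4.0). Each of the 3 was higher at every step.

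Gas5 (1335 and 1342 CPM in the outer bins, ratio 1.01, 0.971 to 1.04) and Snhg1 (723 and 687 CPM, ratio 0.950, 0.905 to 0.997) stayed close to level. So 3 of 5 RNAs were higher by at least 1.5-fold, where 7.63% of 8655 genes were, and 0 were lower, where 6.38% of genes were. The median ratio over all those genes was 1.01.

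**Figure D2:**
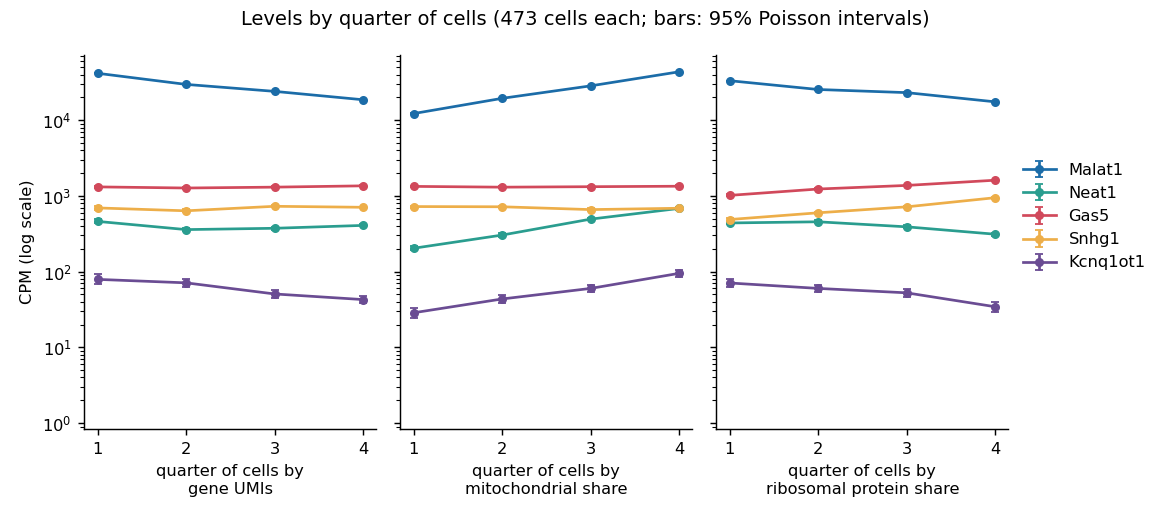
Level of 5 RNAs (CPM, log scale, bars are 95% Poisson intervals) in 4 bins of 473 cells each, ordered by depth, mitochondrial share and ribosomal protein share from left to right. Malat1, Neat1 and Kcnq1ot1 climb with mitochondrial share (ratios 3.56, 3.36 and 3.32) while Gas5 and Snhg1 stay flat, and Gas5 and Snhg1 climb with ribosomal protein share (1.59 and 1.94).

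The bins by mitochondrial share also differed in depth, with medians of 9764 UMIs at the bottom and 7200 at the top, and in ribosomal protein share, 36.7% and 33.4%. With bins taken within 10 strata of depth the ratios were 3.16 for Malat1, 3.64 for Neat1 and 3.14 for Kcnq1ot1. With bins taken within each cluster of cells (below) they were 2.94, 2.61 and 2.87.

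Genes that work with these RNAs were read from lists. The 12 paraspeckle proteins, the partners of Neat1, had a median of 1.04, and 0 were lower by at least 1.5-fold. Hnrnpk was at 0.925 and Nono at 1.02. Of 13 nuclear speckle proteins 0 passed in either direction, and the median was 1.16: Srrm2, a scaffold of speckles, was at 1.20 and the splicing factor Srsf5 at 1.16.

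Of 6 other long noncoding RNAs with enough UMIs 4 were higher, where 7.63% of all genes were, and 0 were lower, with a median ratio of 1.63. The 4 were Xist, which coats the inactive X chromosome (2.74, 2.58 to 2.91), and Dleu2 (1.81), Tug1 (1.73) and Pvt1 (1.53), the last with an interval that spanned 1 (0.983 to 2.38). Dleu2 and Pvt1 were named for passing. Airn, the antisense RNA of the imprinted Igf2r region, was at 1.22 (0.935 to 1.59).

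Of 17 snoRNA host genes tested, Gas5 and Snhg1 included, 1 was higher (Snhg11, 3.31), 1 was lower (Snhg3, 0.665), both named for passing, and the median was 1.01. Zfas1, another abundant host, was at 1.20.

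Ribosomal protein share divided the RNAs the other way. The bins had median shares of 29.2%, 34.2%, 37.5% and 41.9%. As this measure climbs, the other genes in its total necessarily lose share as a sum, though not each of them. The median ratio over all 8515 genes was 0.737, against 1.52 over 81 ribosomal protein genes.

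Gas5 was at 1016, 1232, 1375 and 1611 CPM over these bins, a ratio of 1.59 (1.53 to 1.65). The median cell went from 931 to 1526 CPM, and the middle parts of the outer bins nearly separated, with an upper quartile of 1295 CPM at the bottom and a lower quartile of 1213 CPM at the top.

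Snhg1 was at 487, 598, 717 and 947 CPM, a ratio of 1.94 (1.84 to 2.05), with the median cell at 394 and then 849 CPM. Of 8515 genes 1.33% were higher by at least 1.5-fold, ribosomal protein genes included, and 2 of the 5 RNAs were among them. Gas5 stood close to the line: its ratio was 1.49 with 3 bins in place of 4 and 1.44 with bins taken within each cluster, whereas Snhg1 was at 1.65 within clusters.

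Malat1 (33223 to 17470 CPM, ratio 0.526) and Kcnq1ot1 (70.8 to 34.3 CPM, 0.485) were lower by at least 1.5-fold. Over the alternative settings Malat1 ran from 0.310, with the 6 RNAs kept in the binning measure, to 0.649, and Kcnq1ot1 from 0.345 to 0.653. Neat1 (439 to 312 CPM, 0.710) was not lower by that much. It stood close to the line and passed it under 4 other settings, so that 3 RNAs were lower: 0.437 with the 6 RNAs kept in the binning measure, 0.591 over all barcodes, 0.601 in the cells of 1 multiplexing tag (CMO301) and 0.663 as a mean over cells. Other settings moved Neat1 away from the line. It was at 0.876 with mitochondrial and ribosomal protein genes left out of the denominator, 0.850 in the cells of tag CMO302 and 0.801 with bins within each cluster. With 34.3% of genes lower by at least 1.5-fold in these bins, 2 of 5 is near the background. Of the tested genes, 11.4% lay below Malat1, 7.54% below Kcnq1ot1 and 44.1% below Neat1. Mitochondrial share moved too, from a median of 4.80% in the bottom bin to 3.67% in the top, and its part was not tested.

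Other snoRNA host genes were higher alongside Gas5 and Snhg1. Of the 15 tested besides them, 6 were higher and 0 lower, with a median ratio of 1.28. Zfas1, which hosts snoRNAs of the C/D box class, went from 537 to 872 CPM (1.62, with a UMI in 94.9% of cells). The other 5, named for passing, were Snhg16 (2.12), Epb41l4aos (1.81), Snhg6 (1.73), Snhg12 (1.65) and Snhg5 (1.54). Of the remaining hosts Snhg8 was at 1.29, Snhg3 at 1.28 and Dancr at 0.774, so the list did not move as one.

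The protein partners of the nuclear RNAs were read against the 34.3% of all genes that were lower and their median of 0.737. Paraspeckle proteins were lower for 8 of 12, with a median of 0.585 and Hnrnpk at 0.707. Nuclear speckle proteins were lower for 4 of 13, with a median of 0.704, which is near the background.

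Kcnq1ot1 and H19 lie in the imprinted region of distal chromosome 7, whose other genes ran from 0 to 355 CPM. Cd81, a tetraspanin of the cell surface, was at 355 CPM, the histone chaperone Nap1l4 at 63.4 CPM and the potassium channel gene Kcnq1 at 39.3 CPM. Igf2, the fetal growth factor gene that shares its enhancers with H19, had 0 UMIs in 1892 cells. The limit from 3 cells is then 0.159% and the exact upper limit 0.195%, both for cells with a UMI and not for cells expressing the gene. Of 14 genes of the region 3 had 0 UMIs and 6 were detected in 10% of cells or more.

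The antisense and the sense gene differed across cells. With mitochondrial share Kcnq1 had a ratio of 1.23, where Kcnq1ot1 had 3.32. Of the 8 tested genes of the region besides Kcnq1ot1, 0 were higher and 1 was lower (Tssc4, 0.578, named for passing), where 7.63% of all genes were higher and 6.38% lower. Of 11 other imprinted genes 4 had 0 UMIs. The highest was Igf2r at 85.0 CPM, which had a mitochondrial-share ratio of 1.47. Of the 3 of these 11 with enough UMIs 1 was higher (Peg3, named for passing, at 2.64 with an interval of 1.60 to 4.44, from 47 and 26 UMIs) and 0 were lower. Counts of 1 among so few genes are not read against those shares.

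The cell filter removed 99 barcodes, 26 for few genes only, 23 for mitochondrial share only and 50 for both. They had a median of 901 UMIs, and the 6 RNAs held 17.8% of their UMIs. The sets were made by gene number and mitochondrial share, so this contrast extends the one above and adds no independent evidence.

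Malat1 was at 173905 CPM in the removed barcodes, 7.15 times its level in cells (7.05 to 7.25). Its median per barcode was 120219 CPM, or 12.02% of UMIs, and the highest was 63.1%. Neat1 (3162 CPM, ratio 7.98) and Kcnq1ot1 (287 CPM, ratio 5.37, 3.70 to 7.55) were higher as well, and Gas5 (540 CPM, 0.407) and Snhg1 (118 CPM, 0.169) were lower. The sizes moved with the reason for removal and with the denominator: Malat1 ran from 6.80 to 13.4, Neat1 from 4.61 to 17.0, Kcnq1ot1 from 3.07 to 7.62, Gas5 from 0.407 to 0.578 and Snhg1 from 0.136 to 0.352. For Neat1 the ends were the barcodes removed for mitochondrial share only and for few genes only.

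Ratios past 1.5-fold were the rule in this contrast. Of 10151 genes 25.8% were higher and 46.8% lower, and the median ratio was 0.731. Of the tested genes 99.4% lay below Malat1, 99.6% below Neat1 and 98.5% below Kcnq1ot1. Gas5 and Snhg1 lay above 33.8% and 24.4% of genes, so their low values were ordinary, and ribosomal protein genes had a median of 0.339.

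The removed barcodes were not alike. Malat1 held 32.6% of UMIs in those with few genes only, 16.5% in those removed for mitochondrial share only, and 9.60% in those removed for both. Mitochondrial shares in the 3 sets had medians of 14.2%, 27.6% and 51.2%, so the level of Malat1 did not keep climbing with mitochondrial share.

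Over all barcodes, binned by the mitochondrial share that the filter uses, Malat1 was at 6339 CPM below 1%, 21149 CPM from 2% to 5% and 90468 CPM from 10% to 15%. It reached 182861 CPM in the 27 barcodes just inside the limit (15% to 20%) and 176532 CPM in the 23 just outside (20% to 25%). In the 25 barcodes over 50% it was at 13199 CPM. The level was thus about as high on both sides of the limit and low at the extreme.

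Neat1 followed the same course, with 92.3 CPM below 1%, 2594 and 2401 CPM on either side of the limit, a peak of 3353 CPM from 25% to 50%, and 203 CPM over 50%. Kcnq1ot1 peaked just outside the limit at 511 CPM (324 to 767). Gas5 held between 1148 and 1402 CPM up to a share of 15% and was at 435 CPM from 15% to 20%, and Snhg1 was at 113 CPM there (45.3 to 232). The bins beyond 10% hold 23 to 41 barcodes each, and depth dropped along them, from a median of 3622 UMIs (10% to 15%) to 660 (over 50%). Ribosomal protein share dropped as well, from 25.6% to 10.4%, and the part of either was not tested.

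**Figure D3:**
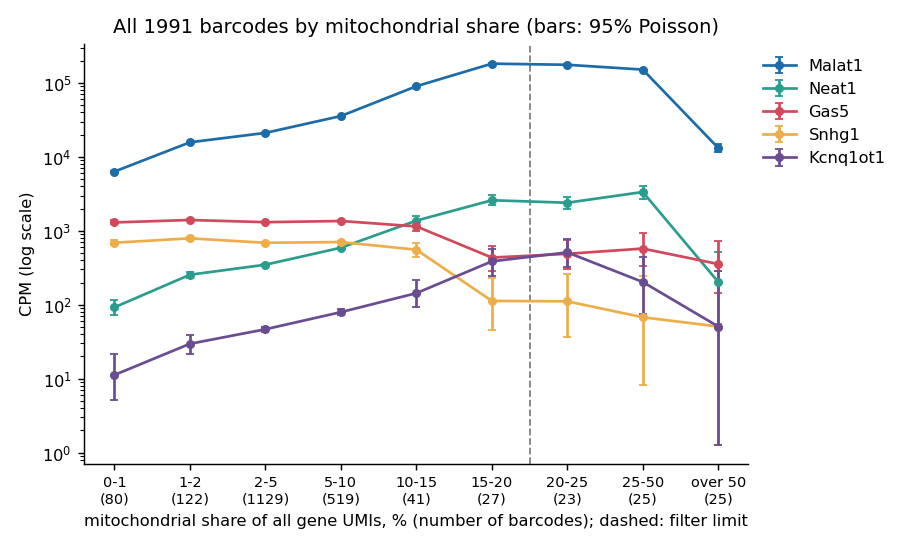
Level of 5 RNAs (CPM, log scale, bars are 95% Poisson intervals) in all 1991 barcodes by mitochondrial share, with the number of barcodes under each bin and the filter limit of 20% dashed. Malat1 climbs from 6339 CPM to 182861 CPM at the limit and drops to 13199 CPM over 50%, while Gas5 and Snhg1 are level up to 10% and lower from 15% on.

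By detected genes the same set showed a peak and not a slope. Malat1 was at 5379 CPM in 21 barcodes with fewer than 250 genes, 231633 CPM with 250 to under 500, 173855 CPM with 500 to under 750, just inside the limit, and 20354 CPM with at least 3000. Gas5 was at 336, 567, 758 and 1315 CPM in those bins.

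**Figure D4:**
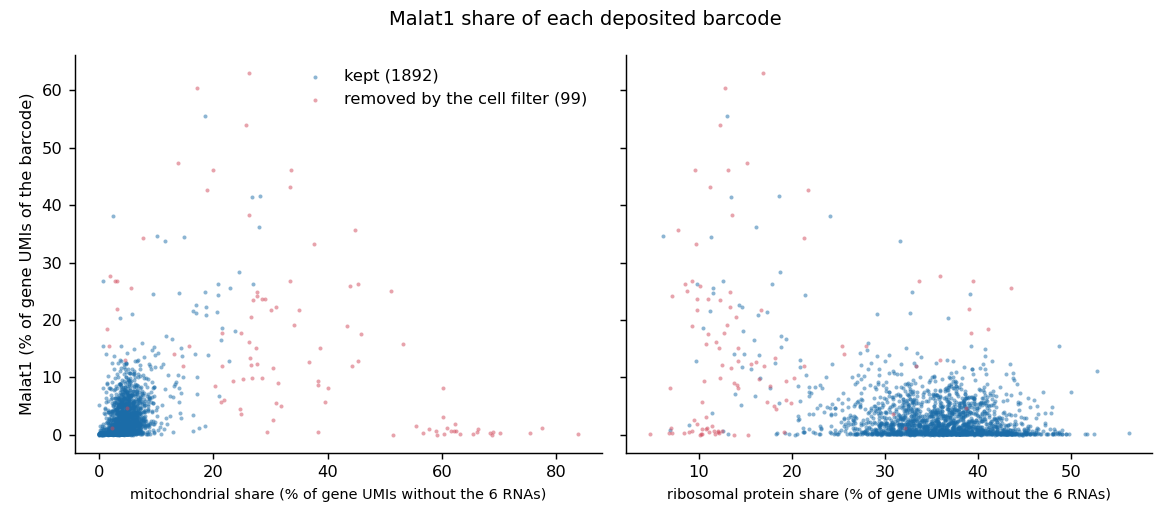
Malat1 as a percentage of the gene UMIs of each barcode, against mitochondrial share (left) and ribosomal protein share (right), both in % of gene UMIs without the 6 RNAs, for 1892 kept and 99 removed barcodes. The highest value is 63.1%, the 95 kept cells with at least 10% Malat1 have a median mitochondrial share of 7.60% against 4.18% over all cells, and barcodes with the largest mitochondrial shares have little Malat1.

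Relations were also read across single cells at equal depth. Over 1835 thinned cells, all from 1 library, Spearman's rho with mitochondrial share was 0.455 for Malat1 and 0.317 for Neat1, above 99.1% and 98.9% of the 1397 genes detected in 20% of cells or more. With ribosomal protein share it was 0.259 for Gas5 and 0.288 for Snhg1. For Malat1 it was -0.172 with ribosomal protein share, where 2.36% of the genes lay lower, and -0.116 with depth, where 1.503% did. The other coefficients were between -0.0806 and 0.0406 and are too weak to read. Kcnq1ot1 was too sparse at this depth to be included.

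Among the RNAs themselves, Malat1 and Neat1 had a rho of 0.591 over these cells and Gas5 and Snhg1 one of 0.196. The 4 mixed pairs lay between -0.0942 and -0.0144, which is no relation to speak of.

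The genes most like each RNA were found by Pearson's r of ln(1 + CPM/100) over 1892 cells among 4074 genes. These values share library, depth and the sum of each cell. For Malat1 they were Neat1 (0.693) and the mitochondrially encoded subunits of complex I mt-Nd1 (0.440) and mt-Nd6 (0.435). For Neat1 they were Malat1, the splicing factor gene Luc7l2 (0.363) and Xist (0.362), and for Kcnq1ot1 they were Malat1 (0.406), Neat1 (0.358) and the choline kinase gene Chka (0.292).

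Gas5 and Snhg1 shared the same leading partners, 2410006H16Rik and 1110038B12Rik, with r of 0.434 and 0.431 for Gas5 and 0.480 and 0.5004 for Snhg1. The next was Rpl23, a protein of the large ribosomal subunit, for Gas5 (0.410), and Fau, whose product holds a protein of the small subunit, for Snhg1 (0.462).

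Clusters were made without the 6 RNAs among the genes used, but each cell was first scaled to a total that included them. The clusters were numbered by size: cluster 1 (576 cells, led by Nav3, Nhs and Cxcl5), 2 (420, Scgb3a1 and Hspb1), 3 (368, Ly6m, Sprr1a and Ndrg1), 4 (362, AC168977.1, 2610528A11Rik and Mt1), 5 (104, Aspm, Knl1 and Dlgap5) and 6 (62, Cyba, Reg3g and Gm3776). None had 3 markers of a class among its 10 leading genes, and none was given a cell type name.

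Malat1 was at 31296, 11507, 28220, 20687, 18430 and 21106 CPM in clusters 1 to 6, 2.72-fold from lowest to highest. All 5 RNAs differed by at least 1.5-fold between their lowest and highest cluster, and so did 88.3% of 10132 genes, so this count is no result about the RNAs. Neat1 had the same extremes, 547 CPM in cluster 1 against 139 CPM in cluster 2, with 491 CPM in cluster 3. Within cluster 1 the quartiles of single-cell Malat1 levels were 10485 and 55056 CPM.

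Gas5 was highest in cluster 4 (1610 CPM), followed by cluster 3 (1560 CPM), and lowest in cluster 6 (813 CPM). Snhg1 had the same order at the ends, with 1007, 865 and 297 CPM in those clusters. Kcnq1ot1 was at 79.9 CPM (73.2 to 87.0) in cluster 1 and 70.3 CPM (54.9 to 88.7) in cluster 6, which overlapped, and at 22.6 CPM in cluster 4.

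Cluster 1 had the highest median mitochondrial share (4.86%) and cluster 4 the highest ribosomal protein share (39.2%), and cluster 6 was lowest for the former (3.10%). Median depth ran from 6207.5 UMIs in cluster 4 to 14365.5 in cluster 6. The part of these measures in the cluster levels was not tested. The size of these differences changed with the number of clusters: with 3 clusters Malat1 differed by 1.33-fold and Neat1 by 1.48-fold at most, and with 10 clusters by 4.36-fold and 6.77-fold.

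**Figure D5:**
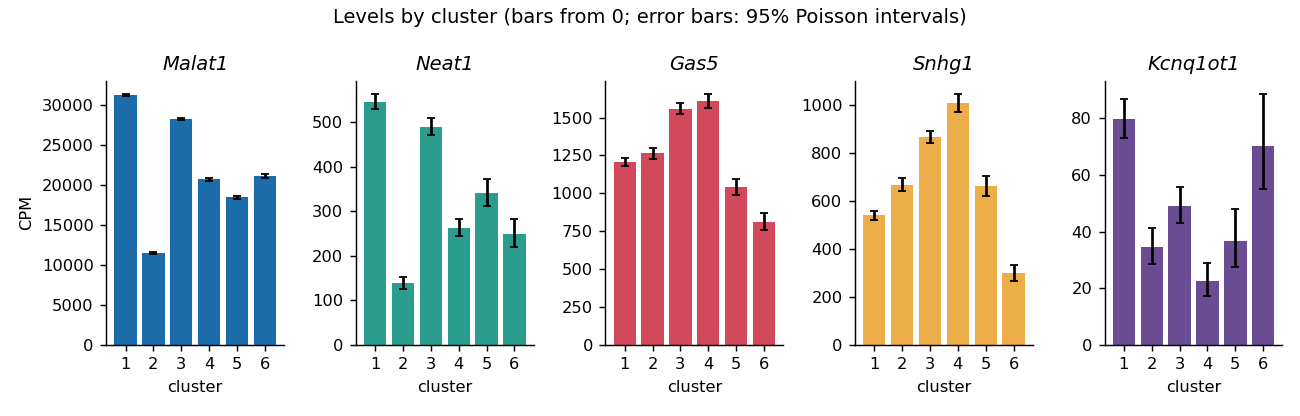
Level of 5 RNAs in 6 clusters of cells, in CPM from 0 with 95% Poisson intervals, 1 panel per RNA with its own scale. Malat1 and Neat1 are lowest in cluster 2 (11507 and 139 CPM) and highest in cluster 1, and Gas5 and Snhg1 are highest in cluster 4 (1610 and 1007 CPM) and lowest in cluster 6.

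Cell cycle phase and the multiplexing tag made little difference. In 434 cells called S or G2/M against 1458 called G1 the ratios were 0.787 for Neat1, 0.834 for Kcnq1ot1, 0.850 for Gas5, 0.851 for Malat1 and 0.925 for Snhg1. None of the 5 passed 1.5-fold, where 11.9% of 10132 genes did in either direction, and Neat1 was at 1.02 when cycling cells were taken as those with a UMI of Mki67 or Top2a.

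The library carried cells marked by 2 tags, CMO301 (1062 cells) and CMO302 (830 cells), and the labels tie neither to a group. Between them the ratios ran from 0.912 for Kcnq1ot1 to 1.15 for Neat1, 0 of 5 passed 1.5-fold, and 2.65% of genes did.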

How the data were processed

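One single-cell library of wild-type gastric organoids was analysed. The authors deposited raw UMI counts per gene and barcode, written by Cell Ranger 6.1.2 per the file headers, and mapped to GRCm38/mm10, as the series' design text states. The annotation, strand and intron settings of the counting are not given in the sources used here. The kit in the labels is a 3′ kit, and the matrix also holds 12 multiplexing tags (5501432 UMIs), which were left out of all totals.

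The 6 RNAs and all gene lists were chosen with earlier results of these data known. Cells with at least 500 genes and at most 20% mitochondrial UMIs were kept. CPM were computed from summed counts, with 95% exact Poisson intervals. Ratios carry conditional binomial intervals and were read against all genes with at least 50 UMIs over both sets. The ratio calls, their intervals and the thinning were tested on simulated counts. Those counts had Poisson noise only, with no spread between cells, and the other steps were not tested in this way. Because cells are no replicates of a library, no p-value was computed.

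Clusters used scanpy 1.11.5 (2000 variable genes without the 6 RNAs, cell cycle, sex-linked and mitochondrial genes, 30 components, 15 neighbours) and leidenalg 0.10.2 at resolution 0.6. Thinning drew 3000 UMIs per cell without replacement. Named genes were the 6 RNAs, the 3 most alike genes of each but H19, and up to 3 genes of highest CPM per list: snoRNA hosts (20 of 21 names found), other long noncoding RNAs (12 of 14), paraspeckle proteins, nuclear speckle proteins, distal chromosome 7 imprinted genes, other imprinted genes, and immediate early and heat shock genes. Genes named outside this rule were chosen after their values were seen, and 1 listed gene is not reported here. Coordinates and transcript sequences are from GENCODE M21, which all 6 gene identifiers matched. Alternatives were other cell filters, doublet removal, denominators, bin numbers, tags, depth strata, resolutions and phase calls. Bins within clusters and a denominator without the 6 RNAs were added after seeing the data. Numerical work used numpy 2.4.6, scipy 1.17.1 and pandas 2.3.3 in Python 3.11.15.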

Additional observations from a re-analysis of the deposited data

How the results depend on the processing

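The 19 alternative settings gave 384 values. No ratio called in either direction changed its direction. In all, 3 counts of called RNAs moved past 1.5 times. With ribosomal protein share in 3 bins, or in 4 bins within each cluster (added after seeing the data), 1 RNA was higher by at least 1.5-fold in place of 2, and with clustering at resolution 0.3, 3 of the 5 RNAs differed by at least 1.5-fold between clusters in place of 5. The mitochondrial-share ratio of Malat1 ranged from 2.94 to 4.05, that of Neat1 from 2.61 to 3.97 and that of Kcnq1ot1 from 2.74 to 4.15. The ribosomal-protein-share ratio of Snhg1 ranged from 1.65 to 2.40 and that of Gas5 from 1.44 to 1.96. The depth ratio of Malat1 ranged from 0.345 to 0.526. The cause of these shifts was not tested.

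No paired analysis was possible because the data are 1 library. Depth limits Kcnq1ot1, found in 14.6% of thinned cells, and H19, at 2 UMIs.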

Other observations

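The 10 immediate early and heat shock genes on the list, known to be induced by stress, were read beside the 6 RNAs. Fos was at 2338 CPM, Atf3 at 1085 CPM and Egr1 at 1004 CPM in cells, all with a UMI in at least 91.6% of them. By mitochondrial share 1 of the 10 was higher by at least 1.5-fold (Fosb, 1.51, named for passing), 0 were lower and the median ratio was 1.16, against 7.63% of all genes higher, 6.38% lower and a median of 1.01, so the count is near the background. In removed barcodes 2 of the 10 were higher and 6 lower, with a median of 0.545 and Fos at 0.252. Over all genes in that contrast 25.8% were higher and 46.8% lower, with a median of 0.731.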
